A study of Canis lupus familiaris with 5 samples.

Results

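The genes described here encode the chains of the fibrillar collagens of types I and III: COL1A1, COL1A2 and COL3A1. They were taken as every probe set whose annotation gives 1 of these symbols and no other. This selection gave 6 probe sets of 3 genes, out of 3724 probe sets that carry a single symbol and 2416 genes in all. COL1A1 was represented by 4 of the 6 probe sets, COL1A2 by 1 and COL3A1 by 1.

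Total RNA came from the myocardium of control dogs, on 2 arrays named control 1a and 2a, and of dogs in congestive heart failure, on 3 arrays named failing 1a, 1b and 2a. Each array other than control 1a, 4 in all, carried a pool of RNA from 3 dogs, and for control 1a the labels say nothing of a pool. The labels give no age, sex, strain or treatment, and do not say how heart failure arose or whether failing 1a and 1b came from different pools, so a p-value speaks only to the spread among these 5 arrays, which may be technical. The values are linear intensities, and the number of arrays limits the precision of every comparison. The heart muscle markers MYH6, MYL2, MYL3, TTN, MB and PLN were bright enough to be tested, as in heart muscle.

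Fibrillar collagens form the tension-bearing fibrils of the interstitium of the heart, and are made mainly by fibroblasts. Type I collagen, the stiffer and more abundant of the pair, is usually a heterotrimer of the alpha-1 chain from COL1A1 and the alpha-2 chain from COL1A2. Type III collagen is a homotrimer of the chain from COL3A1, forms thinner and more extensible fibrils, and co-assembles with type I. Both are deposited during cardiac fibrosis, and their balance is commonly discussed in relation to the stiffness of the ventricular wall.

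Failing and control myocardium were compared to ask whether collagen transcripts differ in the failing heart. COL3A1 and COL1A2 were brighter on every failing array than on either control array, on average 5.13-fold and 2.43-fold. COL1A1 was 1.41-fold brighter on average, with groups that overlapped because the control arrays differed from each other by 4.20-fold. None of these differences passed the threshold over all probe sets. In limma with Benjamini-Hochberg adjustment over 2301 probe sets, 0 of the 3 collagen probe sets that could be tested passed, and at an unadjusted p under 0.05 there was 1, COL3A1. Over all 2301 probe sets, 0.0869% were called, which was 2 probe sets, 1 of CST3 and 1 without a gene symbol. Both lay below 0 on both control arrays, so they could be tested only through their failing values. At an unadjusted p under 0.05, 6.13% of all probe sets were higher in failing myocardium and 3.35% lower.

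COL3A1, at probe set 32488_at, had an intensity of 232.7 on control 1a and 365.2 on control 2a. On the failing arrays it had 1560, 1593 and 1343, in the order 1a, 1b and 2a. The groups were far apart, and the lowest failing value was still 3.68-fold above the highest control value. The means were 298.9 ± 93.6 (SD, n = 2) in control and 1499 ± 136 (SD, n = 3) in failing myocardium. The log2 fold change was 2.36 ± 0.44 (SE), with a 95% confidence interval from 1.25 to 3.47 and an adjusted p of 0.278 in limma. By unadjusted p COL3A1 ranked 17 of the 2301 probe sets. By the size of its log2 fold change it ranked 91, so 3.91% of the probe sets had a larger one. Its spread on the failing arrays was small, with an SD of 0.13 on the log2 scale, against 0.46 on the control arrays.

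COL1A2, at probe set 32305_at, had 388.1 on control 1a and 273.6 on control 2a. On failing 1a, 1b and 2a it had 891.7, 892.2 and 621.8. All failing values again lay above both control values, and failing 2a was the nearest to control, 1.60-fold above control 1a. The means were 330.9 ± 81.0 (SD, n = 2) and 801.9 ± 156 (SD, n = 3). The log2 fold change was 1.28 ± 0.53 (SE, adjusted p = 0.522 in limma), and its 95% confidence interval reached from −0.06 to 2.61. The interval thus includes 0 at its lower end.

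COL1A1 was bright at 1 probe set, 35473_at, with 2743 on control 1a and 653.0 on control 2a. On failing 1a, 1b and 2a it had 2001, 1217 and 2773. Control 1a was nearly as bright as the brightest failing array, control 2a was the dimmest array, and failing 1a and 1b lay between the control arrays. The means were 1698 ± 1478 (SD, n = 2) and 1997 ± 778 (SD, n = 3), a difference smaller than the spread within either group. The log2 fold change was 0.50 ± 0.71 (SE, adjusted p = 0.854 in limma), with a 95% confidence interval from −1.28 to 2.28. That interval includes the estimate for COL1A2 and ends just short of that for COL3A1. Without control 1a the log2 fold change of COL1A1 was 1.53 ± 0.61 (SE, adjusted p = 0.778 in limma), and without control 2a it was −0.54 ± 0.58 (SE, adjusted p = 0.968 in limma). The direction for COL1A1 therefore depended on which control array was used.

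**Figure D1:**
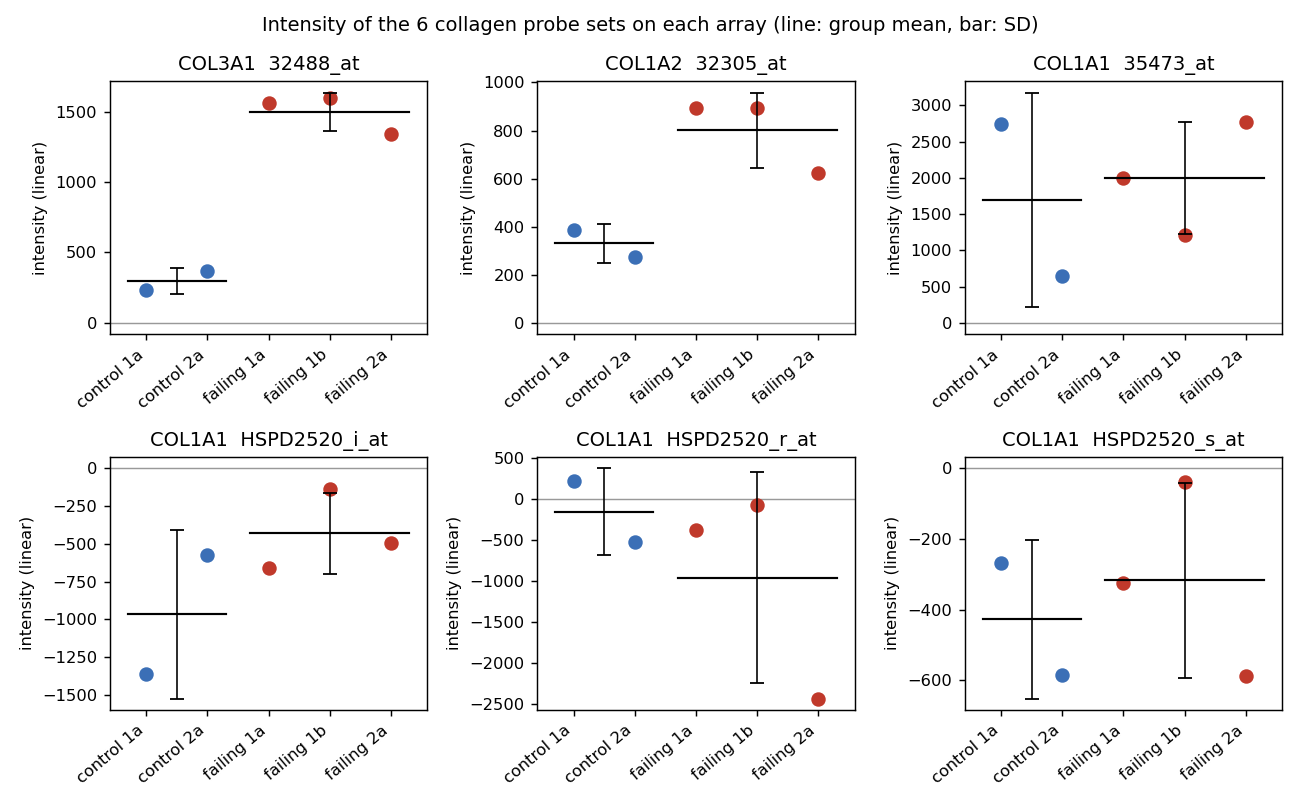
Linear intensity (vertical axis) of the 6 collagen probe sets on each of the 5 arrays (horizontal axis), control in blue and failing in red, with group means as lines and SDs as bars. COL3A1 and COL1A2 lie higher on all 3 failing arrays, COL1A1 at 35473_at overlaps, and the 3 other COL1A1 probe sets lie below 0 on nearly every array.

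Set array against array, the same contrast appears. In the 6 pairings of a failing with a control array, COL3A1 was higher on the failing array in 6, by 3.68-fold to 6.84-fold. COL1A2 was higher in 6 of 6, by 1.60-fold to 3.26-fold. COL1A1 was higher in 4 and lower in 2, with ratios from 0.444 to 4.25. In both pairings where COL1A1 was lower, the control array was 1a. Such complete separation upward, seen in 2 of the 3 collagen probe sets, was found in 18.2% of all 2301 probe sets, and separation downward in 11.5%.

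The gap between the control arrays was large for a probe set as bright as that of COL1A1. On the log2 scale it was 2.07, where the median gap of all 2301 probe sets was 0.42 and 9.26% had a larger one. Among the 419 probe sets whose mean log2 intensity was within 0.5 of COL1A1, the median gap was 0.33, and 9 had a larger one. The gaps of COL1A2 and COL3A1 between the control arrays, 0.50 and 0.65, were near the median of probe sets of like brightness, 0.53 and 0.46. COL1A1 also differed between failing 1a and 1b, by 1.64-fold. By contrast COL1A2 differed between them by 0.00067 and COL3A1 by 0.03 on the log2 scale, where the median probe set differed by 0.32.

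Over the 2301 probe sets failing 2a was the array least like the others, with correlations across probe sets from 0.511 to 0.533, while failing 1a and 1b had 0.798 and the control arrays 0.777. The differences of COL3A1 and COL1A2 were as large without that array. Without failing 2a the log2 fold change was 2.44 ± 0.39 for COL3A1 and 1.45 ± 0.41 for COL1A2 (SE, adjusted p = 0.0962 and 0.217 in limma). With failing 1a and 1b averaged to 1 sample, it was 2.32 ± 0.63 and 1.19 ± 0.73 (adjusted p = 0.670 and 0.751).

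The rank of a probe set within its own array does not depend on how the arrays were scaled. COL3A1 stood at the percentile 52.2 of control 1a and 59.6 of control 2a, and at 80.2, 80.6 and 73.9 of failing 1a, 1b and 2a. COL1A2 stood at 59.6 and 55.2 in control, and at 71.5, 71.6 and 61.4 in failing myocardium. For both genes every failing rank was above both control ranks, for COL1A2 by little on failing 2a. COL1A1 stood at 88.6 and 68.2 in control, and at 83.9, 76.7 and 85.7 in failing myocardium, all 3 between the control ranks. Relative to the median of all probe sets, the log2 fold changes of COL3A1, COL1A2 and COL1A1 were 2.25, 1.17 and 0.39, after 75th percentile scaling 2.26, 1.18 and 0.40, and after quantile normalization 2.15, 1.07 and 0.34. The median itself was 0.11, −0.10 and −0.05 under these scalings.

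**Figure D2:**
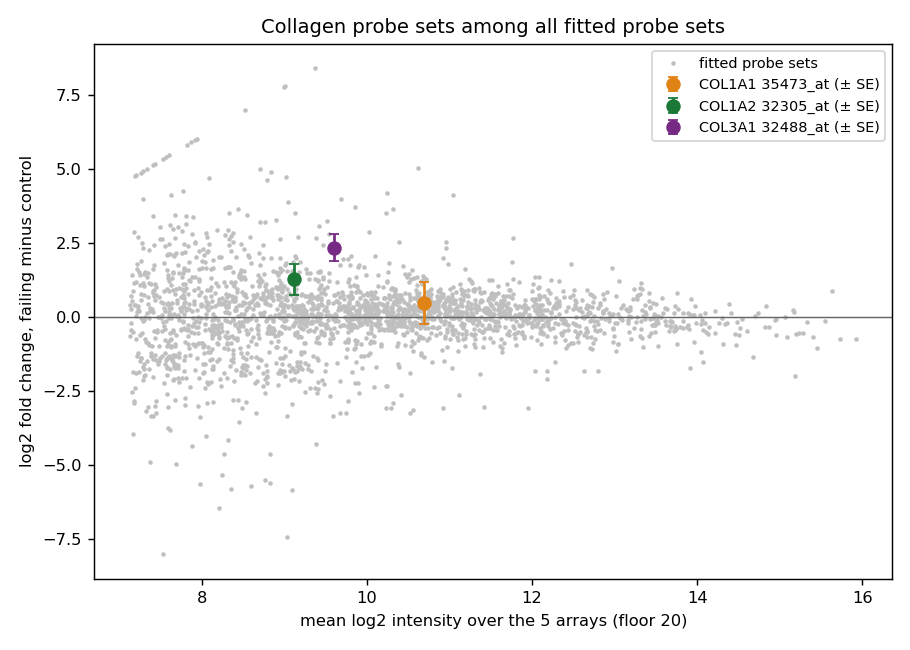
Log2 fold change of failing minus control (vertical axis) against mean log2 intensity over the 5 arrays (horizontal axis) for the 2301 probe sets tested, in grey, with COL3A1, COL1A2 and COL1A1 in colour and bars for the SE. COL3A1 at 2.36 lies above most of the probe sets, and COL1A1 at 0.50 lies within the band of the others.

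The other 3 probe sets of COL1A1 share the base name HSPD2520 and the same source sequence, so they are not independent of each other. None was bright enough to be tested, and 14 of their 15 values lay below 0. HSPD2520_i_at had −1360 and −571 on control 1a and 2a, and −661, −136 and −492 on failing 1a, 1b and 2a. HSPD2520_s_at had −268 and −586 in control, against −324, −37.7 and −588 in failing myocardium. HSPD2520_r_at had 220.2 on control 1a, the only value above the floor of 20, and −525 on control 2a, with −372, −71.9 and −2429 on the failing arrays. A value below 0 has no order in brightness, so these probe sets neither match nor oppose 35473_at, and COL1A1 rests on that probe set alone.

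Probe sets of the same gene often differed in brightness on this array. Of 943 genes with several probe sets, 495 (52.5%) had some that were bright enough to be tested and some that were not. The limit for testing was the median of all probe sets, so a share of this order says little about agreement. Where 2 or more were tested, in 357 genes, the log2 fold changes had opposite signs in 184 (51.5%). Unrelated signs would give a share of this order, so it too says little about agreement. COL1A2 and COL3A1 have a single probe set each, so agreement between probe sets could not be examined for them. The probe sets were designed for human genes, and how well each matches the dog transcript was not tested.

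The ratio of type III to type I chains was formed within each array, as log2 of COL3A1 minus the mean of log2 COL1A1 and log2 COL1A2. Probe sets differ in their response, so the ratio is read only between arrays and gives no molar proportion. It was −2.15 on control 1a and −0.21 on control 2a, and 0.22, 0.61 and 0.03 on failing 1a, 1b and 2a. The ratio was higher on every failing array, but control 2a lay only 0.24 below failing 2a while it was 1.94 above control 1a. The group means were −1.18 ± 1.37 (SD, n = 2) and 0.29 ± 0.30 (SD, n = 3). The difference was 1.47 on the log2 scale, or 2.77-fold, with p = 0.2 in a two-sided exact permutation test, the smallest p that 2 against 3 arrays can give. It was 0.50 without control 1a and 2.44 without control 2a.

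The choice of type I chain mattered for the ratio. Against COL1A2 alone, COL3A1 had a log2 ratio of −0.74 and 0.42 in control and of 0.81, 0.84 and 1.11 in failing myocardium. These groups did not overlap, and the difference in means was 1.08, or 2.11-fold (two-sided exact permutation p = 0.2). Against COL1A1 alone, the log2 ratio was −3.56 and −0.84 in control, against −0.36, 0.39 and −1.05 in failing myocardium. Here failing 2a lay below control 2a, and the difference of 1.86 had an exact permutation p of 0.4. Between the chains of type I collagen itself, log2 of COL1A2 over COL1A1 was −2.82 and −1.25 in control and −1.17, −0.45 and −2.16 in failing myocardium, with overlapping groups (difference 0.78, exact permutation p = 0.4). Adjusted over these 4 ratios by Benjamini-Hochberg, every p was 0.4.

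**Figure D3:**
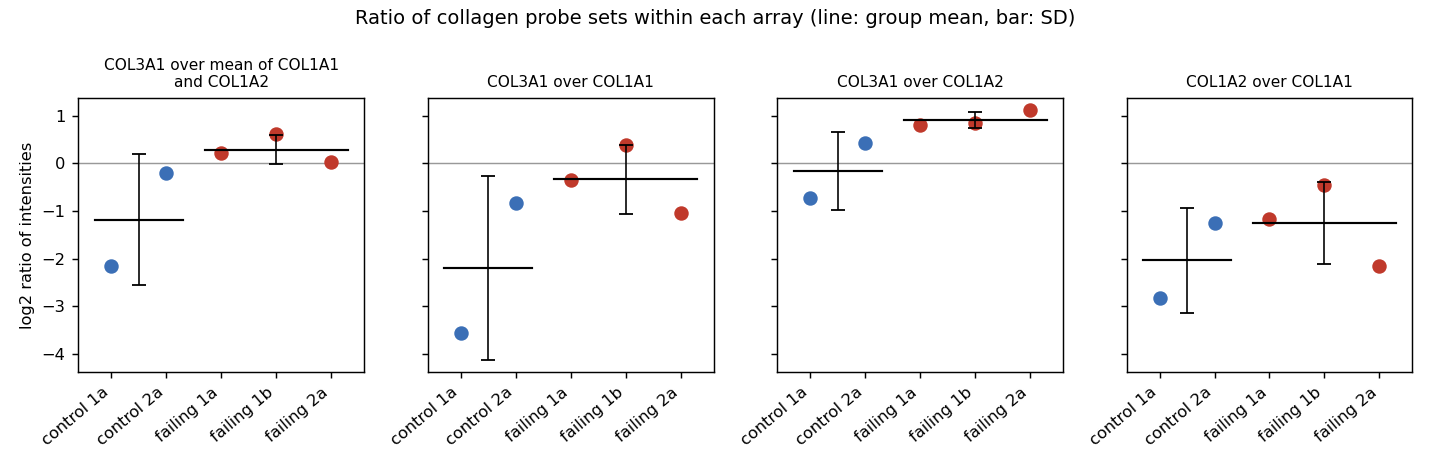
Log2 ratio of intensities within each array (vertical axis) for the 4 ratios of collagen probe sets, with the 5 arrays along the horizontal axis, control in blue and failing in red, group means as lines and SDs as bars. The ratio of COL3A1 to COL1A2 is higher on all 3 failing arrays, and the ratios that involve COL1A1 spread widely, from −3.56 to −0.84 on the control arrays for COL3A1 over COL1A1.

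Fibrillar collagens are made as procollagen chains that are hydroxylated, folded, trimmed and cross-linked by dedicated enzymes. Of 26 listed genes of this processing, 5 were among the named probe sets and 3 could be tested, with 0 past the adjusted threshold in limma and 1 lower at an unadjusted p under 0.05. Over all 1449 genes, counted by 1 probe set each, 0.069% passed, and at an unadjusted p under 0.05 6.63% were higher and 3.59% lower. The lower gene was P4HB, a subunit of prolyl hydroxylase and a general disulfide isomerase, with 8092 and 8868 in control and 5006, 3722 and 5863 in failing myocardium (log2 fold change −0.83 ± 0.25 SE, adjusted p = 0.412). Its other probe set had 0.53 ± 0.53. PCOLCE, which enhances removal of the C-propeptide, had −0.03 ± 0.42, and LOX, the lysyl oxidase that starts cross-linking, had −0.13 ± 1.13. SERPINH1, the collagen chaperone of the endoplasmic reticulum, lay below 0 on all arrays other than failing 2a, where it had 3563. None of the 3 genes that could be tested, of the 26 listed, lay higher on all failing arrays in step with COL3A1.

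Among other collagen chains, 11 of 30 listed genes were named and 7 tested, with 0 past the adjusted threshold in limma and 0 at an unadjusted p under 0.05. In 3 of the 7 every failing value lay above control, and in 0 below it, and under either other scaling the 3 became 1. Their median log2 fold change was 0.71, where the median of all 1449 genes tested was 0.15. Of those genes 19.5% lay wholly above control and 11.8% wholly below. After 75th percentile scaling the median was 0.05 over 8 genes and after quantile normalization 0.15. The 3 separated genes were COL16A1 (1.21 ± 0.74 SE), a fibril-associated collagen, COL15A1 (1.36 ± 0.83), a collagen of basement membrane zones, and COL5A2. COL16A1 was separated by little, with 547.7 on failing 1a against 542.9 on control 1a. COL5A2 encodes a chain of type V collagen, which co-assembles with type I, and in the dog genome table it is the next protein-coding gene beside COL3A1. It was dim, with 78.0 and 129.9 in control and 181.9, 376.9 and 136.1 in failing myocardium (log2 fold change 1.06 ± 1.14). COL5A2 could be tested only through its failing values. It could hardly have counted as lower, so its place among the 3 separated genes is no test of direction. COL6A2 of microfibrillar type VI collagen had 806.6 and 282.7 in control and 378.3, −784 and 192.9 in failing myocardium, and with failing 1b below the floor no fold is given. COL7A1, the anchoring fibril collagen, had 0.71 ± 0.58. COL4A2 had −0.53 ± 0.71. COL18A1 had −0.20 ± 0.26 at its brightest probe set, with overlapping groups. At its other tested probe set it lay wholly below control, with 490.7 and 628.5 against 356.3, 263.8 and 60.6 (−1.64 ± 1.06).

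Of 20 listed matrix genes whose products bind to or surround collagen fibrils, 14 were named and 8 tested. None passed the adjusted threshold in limma, and 4 were higher at an unadjusted p under 0.05 and 0 lower. The same 4 were brighter on each failing array than on both control arrays. Of these, FN1 was too dim in control and could be tested only through its failing values. It could hardly have counted as lower, so its direction is no test. Over all 1449 genes, 6.63% were higher and 3.59% lower at that p, and 19.5% lay wholly above control. After 75th percentile scaling 3 of the 8 were separated in this way, and after quantile normalization 4. The median was 0.77, and 0.57 and 0.70 after 75th percentile scaling and quantile normalization. The median of all genes tested was 0.15, −0.05 and −0.002 in the same order. SPARC, a collagen-binding matricellular protein that acts in fibril assembly, had 7678 and 6943 in control and 14966, 11709 and 11250 in failing myocardium (log2 fold change 0.78 ± 0.20 SE, adjusted p = 0.335). FBN1, the microfibril protein fibrillin-1, had 956 and 1338 against 2073, 2126 and 1773 (0.81 ± 0.31). PRELP, a leucine-rich proteoglycan that binds collagen, had 0.77 ± 0.26 at its brighter probe set and 0.17 ± 0.42 at the other. FN1, fibronectin, had −199 and 83.3 against 363, 276 and 841, and with a control array below the floor no fold is given. LUM and POSTN, which encode lumican and periostin, had 0.25 ± 0.86 and 0.02 ± 0.89, and POSTN turned negative under both other scalings and LUM after quantile normalization.

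Of the signals that induce collagen synthesis, 7 of 20 listed genes were named and 3 tested, with 0 past the adjusted threshold and 1 higher at an unadjusted p under 0.05. That was CCN2, a matricellular growth regulator induced by TGF-beta, with 3900 and 4172 in control and 11753, 11968 and 14659 in failing myocardium (log2 fold change 1.66 ± 0.19 SE, adjusted p = 0.0790 in limma). Over all 1449 genes 0.069% passed, and 6.63% were higher at an unadjusted p under 0.05. TGFB3 had 0.63 ± 0.67 and PDGFRA, the platelet-derived growth factor receptor carried by fibroblasts, −0.01 ± 0.79. Of 13 listed collagen-degrading proteases and their inhibitors, 1 was named and tested, TIMP3, with −2645 and −3618 in control and 2732, 88.3 and 2192 in failing myocardium. Both control values lay below 0, so TIMP3 could be tested only through its failing values, and no fold is given. Of 11 listed collagen receptors 1 was named, DDR1, and it was too dim to be tested.

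**Figure D4:**
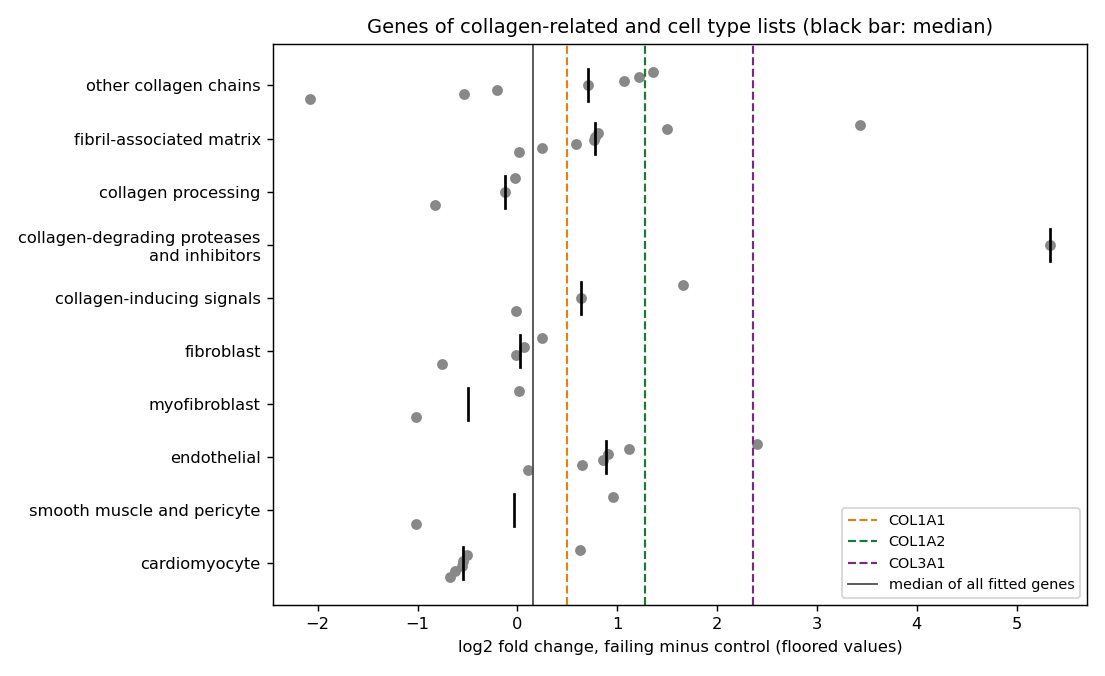
Log2 fold change of failing minus control on floored values (horizontal axis) for each tested gene of the collagen-related and cell type lists (rows), with list medians as black bars, COL1A1, COL1A2 and COL3A1 as dashed lines and the median of all genes tested, 0.15, as a grey line. The endothelial and fibril-associated genes lie mostly to the right of that median and 5 of the 6 heart muscle markers to its left. FN1, COL5A2, CDH5, TEK and TIMP3 were tested only through their failing values.

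In tissue RNA, more cells of a type and more RNA per cell cannot be told apart. Of 10 listed fibroblast markers 7 were named and 4 tested, and their median log2 fold change was 0.02. The summed intensity of the 7 was 10628 and 17763 in control and 11159, 10836 and 19026 in failing myocardium, so it overlapped between the groups. A single gene, S100A4, a calcium-binding protein, made up 72.1% to 92.1% of that sum on each array. The other 6 summed to 835.3 and 4958 in control and to 896.6, 1749 and 1890 in failing myocardium, which overlapped too. Of the 4958 on control 2a, VIM gave 3560, at a probe set with −1125 on control 1a and −930 on failing 2a. Of 6 myofibroblast markers 5 were named, with a sum of 3412 to 3516 in control and 1709 to 2224 in failing myocardium, and CNN1 was below the floor on all arrays. For TAGLN, an actin-binding protein of smooth muscle and myofibroblasts, the log2 fold change was −1.01 ± 0.34 (SE, adjusted p = 0.466 in limma). TAGLN made up 62.5% to 89.3% of the myofibroblast sum, and without it the sum overlapped, with 366.0 and 467.7 in control and 411.0, 335.9 and 641.2 in failing myocardium.

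Sums of some other markers differed between the groups. The 6 named heart muscle markers of 10 listed had a sum of 120677 to 127540 in control and 81985 to 90043 in failing myocardium. For MYH6, the alpha myosin heavy chain, the log2 fold change was −0.54 ± 0.17 (SE, adjusted p = 0.446 in limma). PLN went the other way, with 0.63 ± 0.90 and overlapping groups. TTN had −0.62 ± 0.24 at its brightest probe set, and 0.69 ± 0.54, 0.61 ± 0.79 and 0.08 ± 1.46 at its other tested ones. With the second tested probe sets of MYL3 and TTN, the sum was 87753 and 88460 in control. On the failing arrays it was 58194, 70258 and 72561, still lower on every one. The 7 named endothelial markers of 9 had a sum of 5206 to 5692 in control and 6240 to 11911 in failing myocardium. Of the 6 tested, 3 lay wholly above control, or 1 of 6 under either other scaling. Among those 3, CDH5 could be tested only through its failing values, so its direction is no test. Over all 1449 genes 19.5% lay wholly above control on the deposited scale. The direction of the endothelial sum depended on the probe set taken for ENG, endoglin, a TGF-beta co-receptor. At the brighter one, which enters the sum, ENG had 3090 and 3201 in control and 2938, 2152 and 6162 in failing myocardium. At its other tested probe set it had 5158 and 8319 against 1598, 1488 and 522.6 (log2 fold change −2.61 ± 0.58 SE, adjusted p = 0.305 in limma). With that probe set the endothelial sum was 7274 and 10811 in control and 4962, 5576 and 6272 in failing myocardium, lower on every failing array. Without ENG it was 2116 and 2492 against 3364, 4088 and 5749, higher on every failing array. The 3 named macrophage markers of 7 were below the floor on all arrays. Sums of smooth muscle and pericyte markers (4725 to 4931 against 4387 to 6266), adipocyte markers (10618 to 11172 against 9608 to 13007) and red cell genes (3301 to 5270 against 4424 to 5549) overlapped. Without its brightest gene, LMOD1, the smooth muscle sum was lower on every failing array (3106 and 3165 against 1870, 1948 and 1128), with TAGLN again the largest part. The single named lymphocyte gene, PTPRC, and the single named gene of cartilage, bone and valve, SPP1, were too dim to be tested. The part of these markers in the collagen differences was not tested.

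Array control probe sets moved with the groups too. For GAPDH the 3′ control probe set over the 5′ one gave a ratio of 2.24 ± 0.13 (SD, n = 2) in control and 1.39 ± 0.06 (SD, n = 3) in failing myocardium, with p = 0.2 in a two-sided exact permutation test, the smallest possible. For actin this ratio overlapped, with 0.0899 and 0.108 in control and 0.192, 0.0873 and 0.205 on the failing arrays. The 9 bacterial spike-in probe sets averaged 14.21 ± 0.06 (SD, log2) in control and 13.21 ± 0.67 in failing myocardium. Their part in the collagen values was not tested.

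Few arrays allow only a rough account of which genes had a pattern like that of the collagens. Pearson's r of log2 intensity over the 5 arrays is given as a description, since all points share their arrays and scaling. Nearest to COL3A1 among 1889 probe sets of other named genes were CTNNB1 (beta-catenin, of cell junctions and Wnt signaling, r = 0.996), PABPC1 (a poly(A)-binding protein, r = 0.991) and DPAGT1 (an enzyme of N-glycosylation, r = 0.989). CTNNB1 had 8834 and 9770 in control and 13403, 13162 and 12368 in failing myocardium, a much smaller step than that of COL3A1. Nearest to COL1A2 were GMFG (r = 0.997), PDLIM5 (a Z-disc protein, r = 0.995) and CLTB (a clathrin light chain, r = 0.993). Nearest to COL1A1 were HDAC4 (a histone deacetylase, r = 0.989), MOB3A (r = 0.972) and HMGA1 (a chromatin protein, r = 0.969), each high on control 1a and failing 2a and lowest on control 2a. An r above 0.9 was reached by 81 probe sets for COL3A1, 73 for COL1A2 and 32 for COL1A1, so a high r over 5 arrays was not rare. SGCA, the gene beside COL1A1 in the dog genome table, encodes a sarcoglycan of muscle and had log2 fold changes of 0.94 ± 0.55 and 0.56 ± 0.35 at its 2 probe sets.

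**Figure D5:**
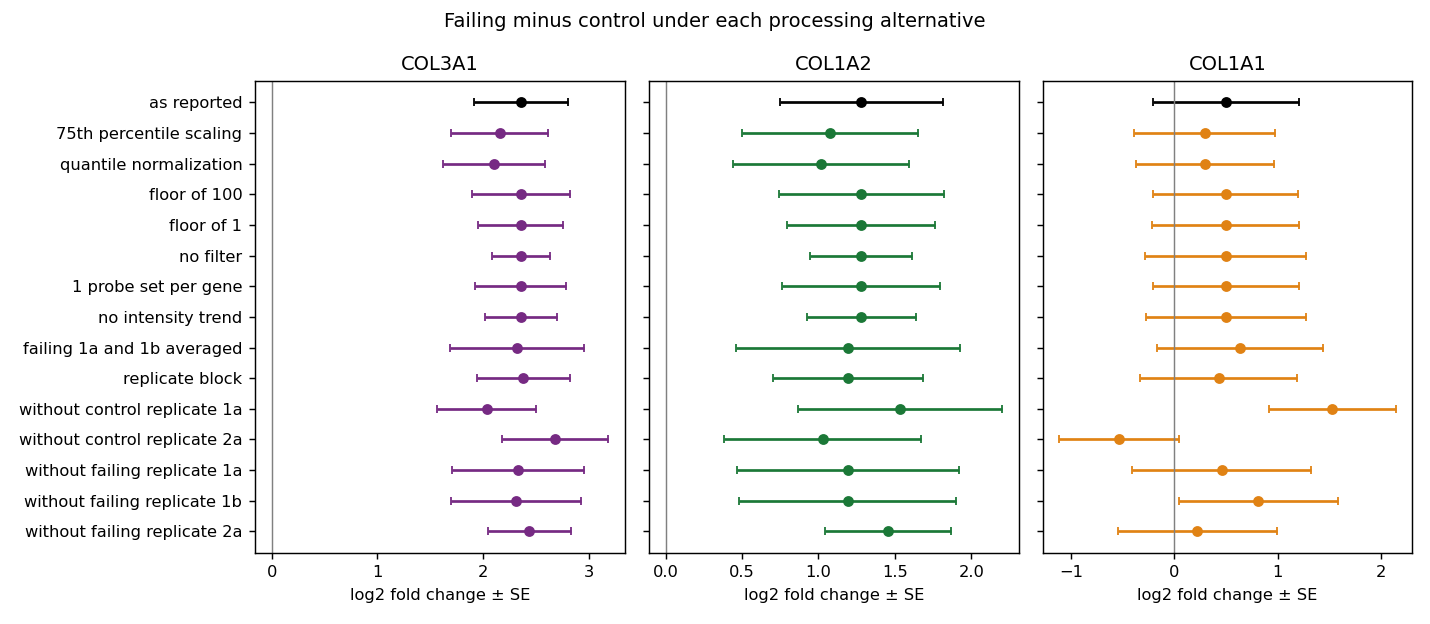
Log2 fold change of failing minus control (horizontal axis, points) with its SE (bars) for COL3A1, COL1A2 and COL1A1, as reported in black and under each other way of processing in colour (rows). COL3A1 stays between 2.03 and 2.68 and COL1A2 between 1.02 and 1.53, while COL1A1 runs from −0.54 without control 2a to 1.53 without control 1a.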

How the data were processed

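The authors deposited 1 linear intensity per probe set and array. Scanner software, background correction and normalization are not given in the sources used here. A common scale is visible in the deposited intensities, since the mean of each array without its lowest and highest 2% of probe sets was 800, and 34.7% to 39.9% of an array's values lay below 0. No scaling was added. Of 4653 probe sets, 52 array controls were left out. Values under 20 were set to 20 (the floor) and log2 taken, and the 2301 probe sets whose mean reached the median of all (7.13, or an intensity of 140.1) were tested. All 3 collagen probe sets tested would have passed on their control mean alone. Folds come from differences in mean log2, and none is given where an array was below the floor.

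Groups came from the sample titles. Failing and control arrays were compared with limma 3.58.1 in R 4.3.3 (lmFit and a trended eBayes, two-sided), with Benjamini-Hochberg adjustment over all 2301 probe sets and a threshold of 0.05. The fit was tested on simulated data. Lists used each gene's brightest tested probe set. Named genes were all collagen probe sets and, per list, up to 4 tested genes with the largest moderated statistic. The 3 nearest in pattern per collagen gene were named too. A few others (COL5A2, COL4A2, COL18A1, SERPINH1, SGCA, DDR1, CST3, CNN1, PTPRC, SPP1, MYL2, PLN, ENG and TEK) were chosen after their values were seen. The genes and lists were chosen with earlier results of these data known. Neighbouring genes were read from RefSeq's table of assembly UU_Cfam_GSD_1.0, without coordinates, because no genome build belongs to the array table. Alternatives changed the scaling, floor, filter, variance model and unit of analysis, averaged failing 1a and 1b, added the replicate number, or left out an array. Marker sums without the brightest gene, or with the second tested probe set of a gene, were added after the data were seen.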

Additional observations from a re-analysis of the deposited data

How the results depend on the processing

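The count of called probe sets, 2 of 2301, moved with most choices and never included a collagen gene. It was 4 with a floor of 100, 6 without the filter on dim probe sets, 6 without the intensity trend, 1 with 1 probe set per gene, and 0 in limma with a floor of 1 or with failing 1a and 1b averaged, where 204 and 146 probe sets had an unadjusted p under 0.05. Leaving out 1 array gave 0 to 21 calls, with 0 without control 1a, failing 1a or failing 1b (152, 162 and 152 at an unadjusted p under 0.05) and 21 without failing 2a. Of the probe sets at an unadjusted p under 0.05, 64.7% were higher with the deposited scale, 44.7% after 75th percentile scaling and 58.3% after quantile normalization.

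COL3A1 and COL1A2 kept their direction, and stayed short of the threshold, in all 14 alternatives, with adjusted p from 0.0962 to 0.684 and from 0.217 to 0.968. Changes of floor, filter, probe sets per gene and intensity trend could not move these log2 fold changes, only their p. Their unchanged direction there is therefore no test. Leaving out 1 array gave log2 fold changes of 2.03 to 2.68 and 1.03 to 1.53. COL1A1 ran from −0.54 without control 2a, a reversal, to 1.53 without control 1a, and the cause of the gap between those arrays was not tested. The ratio of type III to type I chains stayed positive in all 14, from 0.50 to 2.44 when 1 array was left out. Scaling to the 75th percentile and either other floor could not change it, so its 1.47 there is no test. A fit without a control array assumes that the lone control varies like the failing group. Only 35473_at, 32305_at and 32488_at were above the floor on all arrays, so other pairings of probe sets for the ratio added nothing.

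The replicate numbers in the titles are shared between groups, but the deviations of same-numbered arrays hardly correlated (r of 0.01, 0.05 and 0.04). With the replicate number as a block, the replicate block fit gave 0 calls (315 at an unadjusted p under 0.05) and log2 fold changes of 2.38 for COL3A1, 1.19 for COL1A2 and 0.43 for COL1A1, and a ratio difference of 1.57.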
